A study of Mus musculus with 6 samples.

Results

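Gm14434 and 9 related genes of the zinc-finger cluster on mouse chromosome 2 were described in liver RNA-seq libraries labelled Cgref1 KO and wild type. The 10 genes, Gm14434, Gm4724, Gm14308, Gm14305, Gm14325, Gm14440, Gm14296, Zfp973, Zfp970 and Gm14322, are 10 of the 15953 genes in the deposited table. They were chosen by symbol, from their place in the cluster and from their counts in these same 6 libraries, so their differences between genotypes are given as description and carry no p-value. The study sequenced enriched mRNA from liver of C57BL/6 mice, with 3 biological replicates labelled Cgref1 KO and 3 labelled wild type. The labels name the cell type as hepatocytes, while the series describes liver tissue. They give no age, sex or treatment, do not say how Cgref1 was deleted, and do not say whether replicates of unlike genotype shared litters.

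These genes belong to the Krüppel-associated box (KRAB) zinc-finger family, a large class of DNA-binding repressors in mammals. In such a protein the KRAB domain at the amino end recruits the co-repressor TRIM28 (KAP1), which brings the histone methyltransferase SETDB1 and heterochromatin protein 1, and a row of C2H2 zinc fingers reads the DNA. The family grows by local gene duplication, many members repress transposable elements, and young clusters can hold several copies that differ little in sequence.

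The libraries held 17649817, 18019408 and 18366443 expected counts in the KO-labelled group, against 18185837, 17941830 and 17627734 in the wild-type-labelled group. The targeted gene did not separate the labels. Cgref1 had 7, 12 and 10 counts in the KO-labelled libraries, against 7, 7 and 19 in the wild-type-labelled ones, a depth-corrected ratio of 0.925 with an exact 95% interval of 0.542 to 1.57 that covers counting error only. The genotype is therefore given below as labelled. The 12 hepatocyte markers were all present and summed to 89920 to 113000 CPM (counts scaled to a common library depth) in KO-labelled libraries and 85390 to 115600 CPM in wild-type-labelled ones. Markers of other liver cells were present too, and the 9 Kupffer cell markers summed to 274 to 287 CPM in KO-labelled libraries, against 215 to 235 CPM in wild-type-labelled ones. The 7 stellate cell markers summed to 229 to 262 CPM in KO-labelled libraries, against 276 to 350 CPM in wild-type-labelled ones. Of 22 intestinal epithelial markers, 21 were in the table, and their sum was 67.1 to 86.1 CPM in the 3 KO-labelled libraries, against 136, 78.1 and 141 CPM in wild-type-labelled replicates 1, 2 and 3. Their part in the values below was not tested, and in bulk tissue fewer cells of a type and less RNA per cell cannot be told apart.

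Gm14434, Gm4724 and Gm14308 carry one and the same coding sequence in the GENCODE M21 annotation of GRCm38, 1497 bases that match letter for letter and encode 498 residues with 13 C2H2 finger motifs. The stretch below shows a finger repeat and its linker in these genes and in Gm14305 and Gm14325, the nearest of the other 7 cluster genes. It is coding positions 901 to 984 of Gm14434, counted from the A of the start codon, on the minus strand at chr2:176473791-176473874 and within an exon. For the other genes the aligned coding stretch is given. Capitals mark bases that differ from Gm14434.
Gm14434: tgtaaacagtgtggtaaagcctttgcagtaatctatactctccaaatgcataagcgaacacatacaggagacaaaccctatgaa
Gm4724: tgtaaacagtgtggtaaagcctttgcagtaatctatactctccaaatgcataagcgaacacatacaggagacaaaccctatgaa
Gm14308: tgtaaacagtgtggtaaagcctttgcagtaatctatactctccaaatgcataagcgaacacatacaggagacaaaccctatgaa
Gm14305: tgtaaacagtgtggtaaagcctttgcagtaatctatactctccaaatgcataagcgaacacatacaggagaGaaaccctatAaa
Gm14325: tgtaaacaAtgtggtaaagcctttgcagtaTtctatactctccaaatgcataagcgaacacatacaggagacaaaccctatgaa
Gm4724 and Gm14308 had 0 differences from Gm14434 in this stretch, and Gm14305 and Gm14325 had 2 each. Over the whole coding sequence Gm14305 differed from Gm14434 at 7 bases (99.5% identity) and Gm14325 at 66 bases (95.6% identity), while Gm14391 and Gm6710, neighbours outside the 10, differed at 64 bases each (95.7% identity). No base in the coding sequence can assign a read to Gm14434 rather than to Gm4724 or Gm14308.

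The sharing reached an annotated RefSeq start of each gene. The RefSeq windows of 250 bases before to 50 bases after the annotated start (GRCm38.p6) were identical over all 300 bases in Gm14434 (chr2:176486700-176486999), Gm4724 (chr2:175435728-175436027) and Gm14308 (chr2:176636270-176636569), all on the minus strand. The deposited gene spans reach further upstream, to 176488246 for Gm14434, 175606168 for Gm4724 and 176636736 for Gm14308, and other starts were not compared. The sequence is printed once, above that of Gm14305 (chr2:176708103-176708402, plus strand), which had 98.3% identity over 292 aligned bases. In the second line capitals mark bases that differ from Gm14434 or lie outside its window. The last 8 fall in the second class, because the annotated start of Gm14305 lies a few bases further along the shared sequence.
Gm14434: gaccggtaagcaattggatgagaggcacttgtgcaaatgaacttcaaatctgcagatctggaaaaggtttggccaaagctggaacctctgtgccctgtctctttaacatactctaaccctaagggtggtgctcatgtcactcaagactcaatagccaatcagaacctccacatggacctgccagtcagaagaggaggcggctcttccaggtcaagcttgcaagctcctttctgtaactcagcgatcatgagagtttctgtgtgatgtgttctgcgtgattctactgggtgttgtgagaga
Gm14305: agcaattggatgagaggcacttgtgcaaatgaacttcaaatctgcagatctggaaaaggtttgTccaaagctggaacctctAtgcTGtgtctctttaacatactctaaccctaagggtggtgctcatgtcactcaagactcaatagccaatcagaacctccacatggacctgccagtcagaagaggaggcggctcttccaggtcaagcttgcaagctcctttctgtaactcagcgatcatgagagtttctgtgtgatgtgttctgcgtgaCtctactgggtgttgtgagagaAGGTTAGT
The table held windows for 9 of the 10 genes, and Gm14296 had no entry. Among those 9, identity between windows was 93.9% to 100% over 234 to 300 aligned bases.

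Other cluster members formed further sets with one coding sequence. Gm14440 shares its 195 coding bases with Gm14288, and the 64 residues encoded hold no finger motif. Zfp973 shares its 957 coding bases, with 6 finger motifs, with Zfp965, and Gm14296 shares its 405 coding bases, with 1 finger motif, with 2210418O10Rik. Zfp970 (522 residues, 14 finger motifs), Gm14322 (358 residues, 8 motifs), Gm14305 and Gm14325 (498 residues and 14 motifs each) had no identical partner among the genes compared. LOC105244402, LOC102633156, LOC102639505, LOC102639653, LOC102638674 and 0610010B08Rik, also in the cluster, had no GENCODE coding sequence under those symbols and were not compared. GENCODE M21 also annotates Gm11007, Gm2007, Gm2026 and Gm4631 with the coding sequence of Gm14434, and Gm14435 with that of Gm14440. These 5 genes were not analysed here.

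Whole annotated transcripts, with their parts outside the coding sequence, were compared through words of 50 and 100 bases. These lengths were chosen here and not taken from the reads. Of the 2703 distinct 50-base words in the annotated transcripts of Gm14434, 0 were unique to it, and 9 of 2749 were at 100 bases. The comparison took in all GENCODE genes, also those whose symbols are not in the deposited table. Gm2026, which is one of these, shared 2645 of the 50-base words, Gm14308 shared 2643 and Gm4724 shared 2359. Uniqueness among the genes of the table alone was not computed. Gm4724 had 4 unique words of 2560 at 50 bases, Gm14308 had 62 of 3258 and Gm14440 had 0 of 3304. Zfp970 stood at the other end, with 969 unique 50-base words of 1925, and 49.7% of its words shared.

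**Figure D1:**
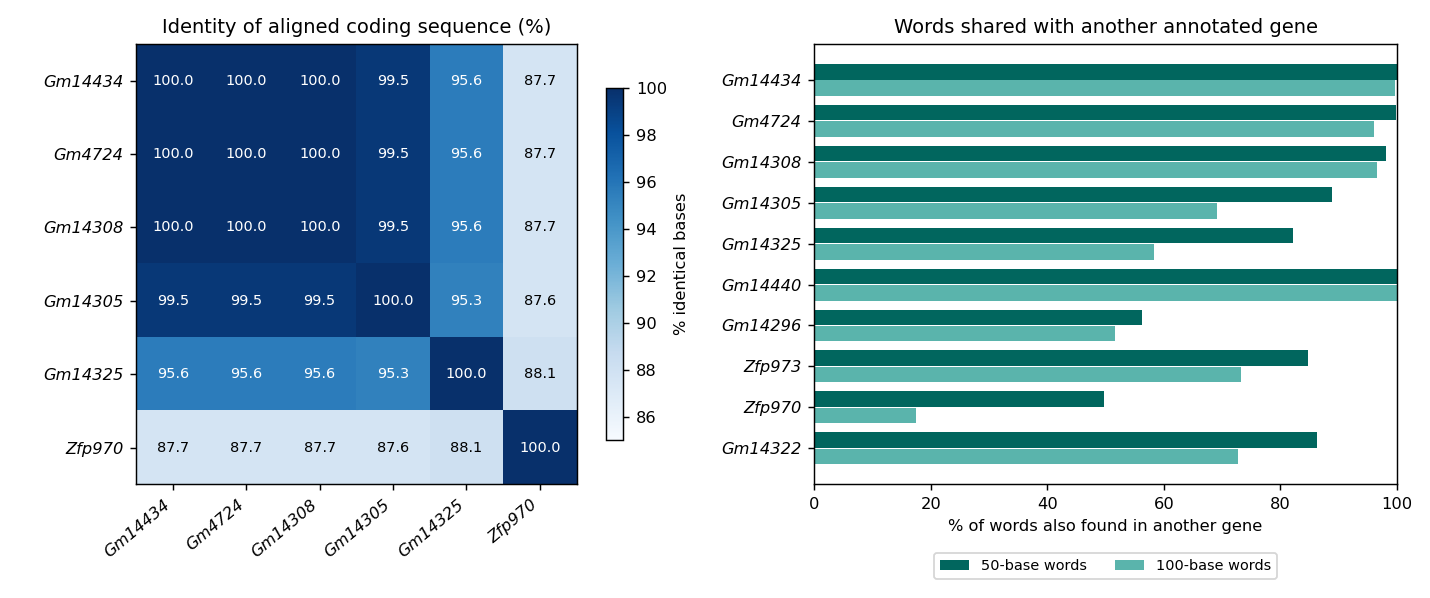
Left, the percentage of identical bases between aligned coding sequences of 6 cluster genes, drawn as a heat map. Right, the percentage of 50-base and 100-base words of each gene's annotated transcripts that also occur in another gene, with all 50-base words of Gm14434 and Gm14440 shared and 49.7% of those of Zfp970.

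These sequences cover only part of what the deposited counts refer to. The ratio of counts to FPKM (fragments scaled for transcript length and library depth) gives the effective transcript length behind each value, and it was 4369 to 4391 bases for Gm14434, 4158 to 4374 for Gm4724 and 4354 to 4411 for Gm14308. The longest GENCODE transcripts of these genes are 1497, 1659 and 1628 bases. Over 555 genes with a single transcript, the effective length was shorter than the transcript by a median of 181 bases (quartiles 165 and 257). The transcripts counted for these 3 genes were longer than those annotated in GENCODE M21. The same held for Zfp970 (median effective length 4499 bases, longest GENCODE transcript 1569), Gm14322 (3578 and 1077) and Gm14325 (4228 and 1576). The words pool all GENCODE transcripts of a gene, and for these 6 genes their shares still cover only part of what was counted. Whether the added sequence separates the genes was not tested. Gm14440, Gm14305 and Zfp973, with median effective lengths of 3218, 1455 and 1173 bases, stood below their longest GENCODE transcripts of 3382, 1646 and 1295 bases.

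The counts themselves show how reads were shared out. The authors' counter splits a read that matches several transcripts into fractions, which leaves counts that are not whole. Of the 55 non-zero values of the 10 genes, 0 were whole within 0.005 counts. Among genes outside the cluster with a mean of at least 10 counts, 91.7% of 71758 non-zero values were whole. Neighbours in the cluster were left out of that comparison, and the trait is not particular to the 10 genes. Counts of the neighbours Gm14326 and Zfp971 were not whole either, while those of Zfp972 were. Every non-zero value of every gene named here as a cluster member therefore contains divided reads.

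Gm14434 had 88.7, 74.2 and 119 counts in the KO-labelled libraries and is listed at 0 in all 3 wild-type-labelled libraries. In TPM, a level scaled for transcript length and library depth, it stood at 1.58, 1.22 and 1.93 in the KO-labelled libraries. The groups did not overlap. It averaged 5.35 ± 1.14 CPM in the KO-labelled libraries (SD, n = 3). No fold is given, because a 0 in the deposited counts may depend on how reads were divided. It sets no limit on reads from sequence that Gm14434 has in common with Gm4724 and Gm14308. What lay behind these 0 values was not tested. Gm14434 was the 1 gene of the table at 0 in every library of a group and at 10 counts or more in every library of the other, in either direction, and it also met a minimum of 50 counts.

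Gm4724 had 88.8, 95.1 and 65.7 counts in the KO-labelled libraries, against 131, 158 and 160 in the wild-type-labelled ones. All KO-labelled libraries lay below all wild-type-labelled ones, and the fitted log2 fold change was -0.76 with a standard error (SE) of 0.19. Gm14308 had 0, 71.9 and 29.6 counts in the KO-labelled libraries, against 94.0, 28.5 and 96.3 in the wild-type-labelled ones. Its groups overlapped: KO-labelled replicate 1 is listed at 0, and KO-labelled replicate 2 lay above wild-type-labelled replicate 2. Its log2 fold change was -1.03 with an SE of 1.10. In 4 of the 6 libraries 1 of these 3 genes is listed at 0, and it was Gm14434 in the wild-type-labelled ones and Gm14308 in KO-labelled replicate 1.

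Summed over Gm14434, Gm4724 and Gm14308, the libraries held 177, 241 and 215 counts in the KO-labelled group, against 225, 187 and 257 in the wild-type-labelled group. The groups overlapped, with KO-labelled replicate 2 above wild-type-labelled replicates 1 and 2. The sum averaged 12.1 ± 1.85 CPM in KO-labelled libraries and 12.1 ± 2.05 CPM in wild-type-labelled ones (SD, n = 3 each), a ratio of 0.995. Across the 6 libraries the SD of the sum was 1.75 CPM, whereas 4.25 CPM would follow if the 3 genes varied independently and 0.821 CPM from counting alone. The SD within groups was 1.95 CPM, against 2.45 CPM for independent parts, so most of the gap between 1.75 and 4.25 CPM lies in the difference between groups, for which the genes were chosen. Gm14434 with Gm4724 alone came to 177, 169 and 185 counts in the KO-labelled libraries, all above the 131, 158 and 160 in the wild-type-labelled ones, with a smaller SD than the sum of 3, 1.21 CPM over the 6 libraries and 0.596 CPM within groups. Gm4724 with Gm14308 alone came to 88.8, 167 and 95.3 counts in the KO-labelled libraries, all below the 225, 187 and 257 in the wild-type-labelled ones.

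**Figure D2:**
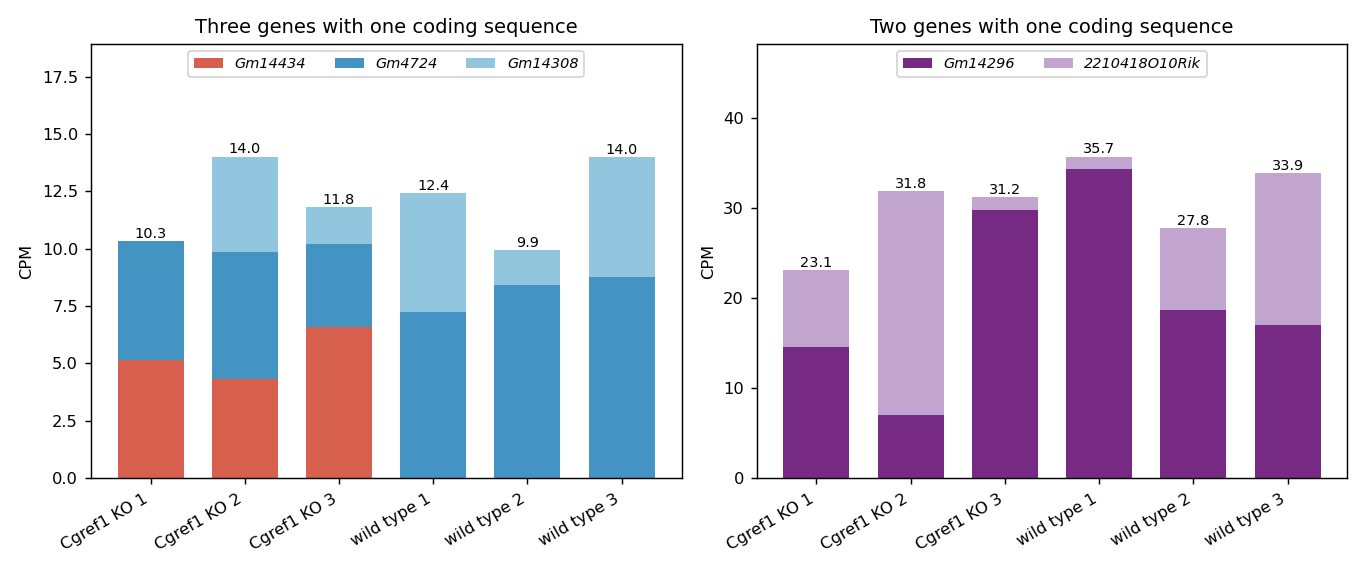
Stacked CPM per library for Gm14434, Gm4724 and Gm14308 (left) and for Gm14296 and 2210418O10Rik (right), genes that share a coding sequence within each panel, with libraries named by their labels and the sum printed above each bar. The split among the genes differs between libraries, and the sum of the 3 genes averages 12.1 CPM in both groups.

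Across all genes, the quasi-likelihood test of edgeR, adjusted after Benjamini and Hochberg, called 1 of 12033 genes tested, 0.00831%, and that gene was Gm14434. DESeq2 called 33 genes, 0.257% of the 12841 with an adjusted p, and Gm14434 was the 1 of the 10 cluster genes among them. Because the genes were chosen from this contrast, nothing is read from these counts. All 10 passed the filter on low counts, Gm14434 through the KO-labelled group alone. In an alternative chosen after seeing the data, counts of cluster members were added before the fit to those of table genes with the same coding sequence. There edgeR called 0 of 12029 genes, with 620 at an unadjusted p under 0.05. Gm14434 had no row of its own in that fit, and the level sum with its partners was already known. The outcome was thus set beforehand, and nothing is read from it. DESeq2 was not run on the added counts.

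Gm14434 was the 1 gene of the 10 whose KO-labelled libraries all lay above the wild-type-labelled ones, and over all genes tested 6.19% did so. Gm4724 was the 1 whose KO-labelled libraries all lay below, against 4.63% over all genes. The other 8 overlapped. Of the 10 fitted log2 fold changes 8 were negative, with a median of -0.18, where the median over all genes was -0.002 with 5954 positive and 6079 negative.

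Gm14296, which encodes a short protein of 134 residues, and 2210418O10Rik, with the same coding sequence, had opposed counts between replicates of a genotype. Whether reads passed from one gene to the other was not tested. Gm14296 had 249, 120 and 541 counts in the KO-labelled libraries, against 621, 352 and 311 in the wild-type-labelled ones. 2210418O10Rik had 147, 428 and 24.7 counts in the KO-labelled libraries, against 25.8, 171 and 310 in the wild-type-labelled ones. Where Gm14296 was high, in KO-labelled replicate 3 and wild-type-labelled replicate 1, 2210418O10Rik was lowest, and where Gm14296 was lowest, in KO-labelled replicate 2, 2210418O10Rik was highest. Their sum was 397, 548 and 566 counts in the KO-labelled libraries, against 647, 523 and 621 in the wild-type-labelled ones, with overlapping groups. Its SD within groups was 4.50 CPM, where 14.7 CPM would follow if the genes varied independently. The log2 fold change of Gm14296 alone was -0.44 with an SE of 0.60, and leaving out 1 library moved it between -1.12 (without KO-labelled replicate 3) and -0.06 (without wild-type-labelled replicate 1).

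Gm14440, whose product holds no finger motif, did not mirror its partner Gm14288. Gm14440 had 307, 351 and 384 counts in the KO-labelled libraries, against 411, 352 and 475 in the wild-type-labelled ones. Gm14288 had 61.3, 102 and 95.7 counts in the KO-labelled libraries, against 64.5, 76.4 and 132 in the wild-type-labelled ones. Both genes stood highest in wild-type-labelled replicate 3, and the SD of their sum over the 6 libraries, 4.04 CPM, was above the 3.25 CPM of independent parts. The groups of Gm14440 overlapped, with a log2 fold change of -0.18 and an SE of 0.14.

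Zfp973 was the lowest of the 10. It had 7.09, 5.03 and 13.0 counts in the KO-labelled libraries, against 17.0, 13.2 and 0 in the wild-type-labelled ones. In wild-type-labelled replicate 3, where Zfp973 is listed at 0, its partner Zfp965 had 5.02 counts, and Zfp965 is listed at 0 in the other 5 libraries. The pair summed to 7.09, 5.03 and 13.0 counts in the KO-labelled libraries, against 17.0, 13.2 and 5.02 in the wild-type-labelled ones, too few to separate the groups at this depth.

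The 4 genes for which no identical partner was found had overlapping groups and fitted log2 fold changes from -0.22 to 0.05. Gm14305, 7 bases from Gm14434 in its coding sequence, had 28.3, 42.7 and 25.6 counts in the KO-labelled libraries, against 40.9, 36.3 and 32.6 in the wild-type-labelled ones (log2 fold change -0.10, SE 0.28). Gm14325, 66 bases away, had 311, 381 and 332 counts in the KO-labelled libraries, against 380, 371 and 400 in the wild-type-labelled ones (-0.09, SE 0.12). The lowest and highest counts of Gm14305 differed 1.67-fold, and adding it to Gm14434, Gm4724 and Gm14308 left the ratio at 0.986.

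Zfp970 had the highest level of the 10 and varied within each group. It had 893, 1262 and 1869 counts in the KO-labelled libraries, against 860, 1467 and 2574 in the wild-type-labelled ones, a 2.99-fold range. The SD was 25.6 CPM around a mean of 76.1 CPM in the KO-labelled libraries and 47.4 CPM around 88.6 CPM in the wild-type-labelled ones, and the log2 fold change was -0.22 with an SE of 0.48, which turned to 0.28 without wild-type-labelled replicate 3. Gm14322 had 201, 214 and 319 counts in the KO-labelled libraries, against 192, 263 and 288 in the wild-type-labelled ones (0.05, SE 0.20).

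**Figure D3:**
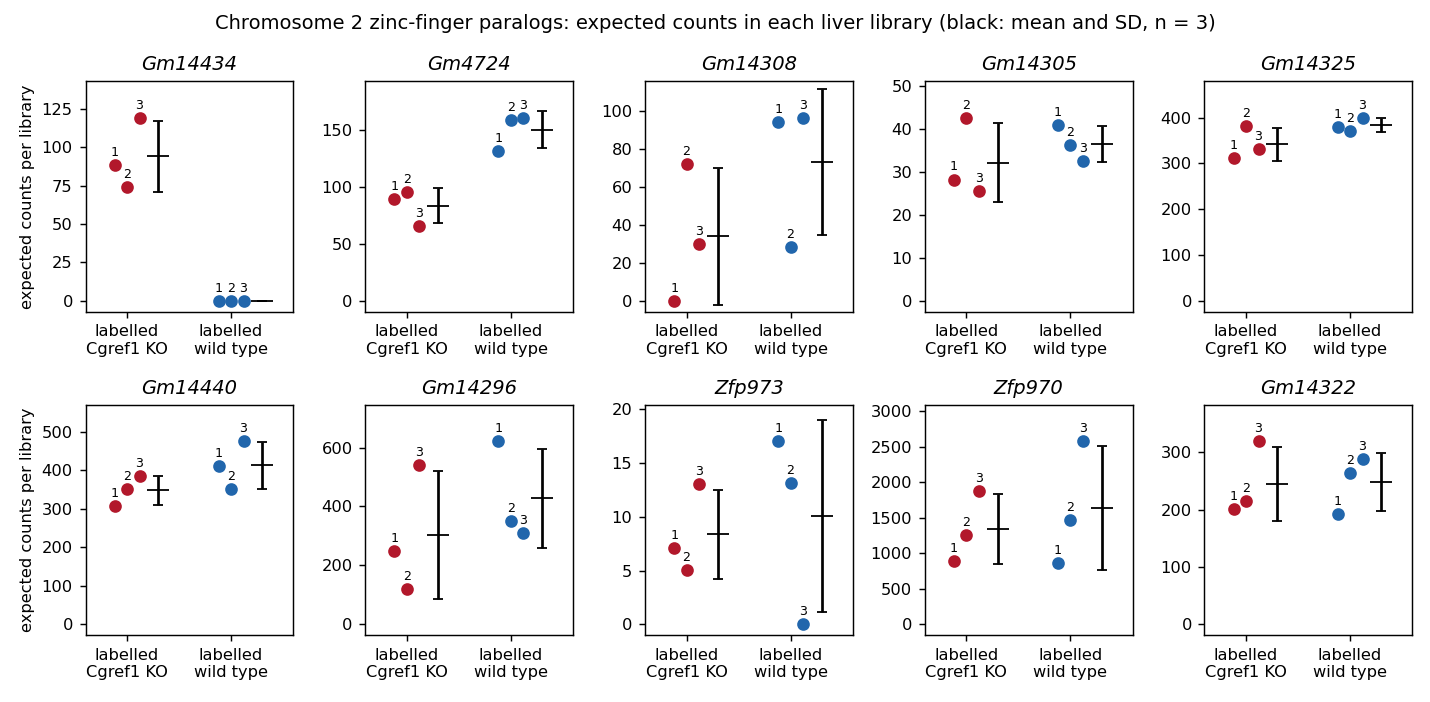
Expected counts of each of the 10 cluster genes in the 3 libraries labelled Cgref1 KO (red) and the 3 labelled wild type (blue), with replicate numbers beside the points and black marks for the mean and SD of each group. Gm14434 is at 0 in all wild-type-labelled libraries, Gm4724 is lower in all KO-labelled ones, and the other 8 overlap.

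On the TPM scale, which allows levels of different genes to be set side by side, Zfp970 came first in both groups, at a mean of 21.7 TPM in KO-labelled libraries and 27.9 TPM in wild-type-labelled ones. Its lowest library, at 14.6 TPM, lay above the highest of any other of the 10 genes, 12.7 TPM. In the KO-labelled libraries the means then ran from 7.90 TPM for Gm14440 through 5.92 for Gm14325, 5.90 for Gm14296, 4.94 for Gm14322, 1.62 for Gm14305, 1.58 for Gm14434, 1.43 for Gm4724 and 0.553 for Gm14308 to 0.523 for Zfp973. Of these neighbours in the order, Gm14440 and Gm14325 did not overlap, nor did Gm14322 and Gm14305, and the others did. In the wild-type-labelled libraries the means ran from 9.84 TPM for Gm14440 through 8.73 for Gm14296, 6.95 for Gm14325, 5.34 for Gm14322, 2.66 for Gm4724, 1.93 for Gm14305, 1.28 for Gm14308 and 0.653 for Zfp973 to 0 for Gm14434. Here neighbours in the order did not overlap within the 5 genes from Gm14325 to Gm14308, and the other neighbours did. The 10 genes together held 2175, 2617 and 3698 counts in the KO-labelled libraries, against 2746, 3042 and 4337 in the wild-type-labelled ones. That was 161 ± 39.2 CPM in KO-labelled libraries and 183 ± 46.5 CPM in wild-type-labelled ones (SD, n = 3 each), a log2 ratio of -0.19 that came to 0.04 without wild-type-labelled replicate 3.

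The other 19 zinc-finger genes of the table in the same stretch of chromosome 2 are not among the 10, though 2210418O10Rik and Zfp965, described above as partners, are among these 19. Gm14288, another partner, is annotated with a KRAB box but no zinc finger and is not among them. Of the 19, 14 were tested and edgeR called 0, DESeq2 called 0 and limma-voom called 0, with 1 gene at an unadjusted p under 0.05 in edgeR. The 14 log2 fold changes had a median of -0.07, with 6 positive and 8 negative, and none had groups that did not overlap. Zfp967, whose gene span in the table overlaps that of Gm14434 on the opposite strand, had 42.9, 26.1 and 68.5 counts in the KO-labelled libraries, against 61.0, 115 and 101 in the wild-type-labelled ones (log2 fold change -0.94, SE 0.34, adjusted p = 0.918). The labels do not say whether the libraries keep strand, so reads in that overlap cannot be told apart. Spans of Gm4724, Gm14440 and Gm14325 also overlap those of other cluster genes, 4 of them for Gm4724. Those of Zfp973 and Gm14305 overlap each other on the same strand. The next smallest p-values belonged to Zfp971 (-0.24, adjusted p = 0.974) and LOC102639653 (-1.47, adjusted p = 0.984). The neighbours with the highest levels, Gm14295, Gm14326 and Zfp971, averaged 26.7, 16.0 and 14.8 CPM over the 6 libraries, and Gm14295 and Gm14326 had log2 fold changes of -0.08 and -0.06. A sum over 19 cluster genes outside the 10 took in Gm14288 and left out Zfp831. It averaged 107 ± 19.4 CPM in KO-labelled libraries and 113 ± 15.8 CPM in wild-type-labelled ones (SD, n = 3 each).

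The co-repressor machinery through which KRAB proteins act was set beside the cluster. Of 37 listed symbols 35 were in the table and 34 were tested, and edgeR called 0, with 1 at an unadjusted p under 0.05. That gene, Hdac2, had a log2 fold change of -0.28 (SE 0.11, edgeR adjusted p = 0.935). The list had 17 positive and 17 negative log2 fold changes and a median of 0.00. Trim28, the scaffold that KRAB domains bind, averaged 59.8 ± 5.75 CPM in KO-labelled libraries and 51.9 ± 3.33 CPM in wild-type-labelled ones (SD, n = 3 each), a log2 fold change of 0.20 (SE 0.10, edgeR adjusted p = 0.973). Among the genes of the list with the most counts, Rbbp4, a histone chaperone of deacetylase complexes, had a log2 fold change of 0.12, and Sumo2, a small ubiquitin-like modifier, had one of 0.03. Of 313 other tested genes with a numbered Zfp symbol, or Rsl1, elsewhere in the genome edgeR called 0, with 11 at an unadjusted p under 0.05. Their log2 fold changes were negative in 223 and positive in 90, with a median of -0.11. This median ran from -0.24 to -0.08 under the alternative fits, and the median over all genes moved too. With limma on log2(TPM + 0.1) it was -0.24 for these genes and -0.13 over all genes. On log2(TPM + 1) the values were -0.14 and -0.10, and in edgeR without wild-type-labelled replicate 2 they were -0.08 and 0.003.

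The genes whose pattern over the 6 libraries was most like that of Gm14434 were ranked by Pearson correlation of log2(CPM + 1) among 11328 genes with a mean of at least 1 CPM. Abhd12, a lysophosphatidylserine lipase, came first at 0.981, followed by Gulo, which catalyses the last step of vitamin C synthesis, at 0.974 and BC017158 at 0.971. The most opposed were Sept1 at -0.997, Emp2 at -0.993 and Sntb2 at -0.988. Gm4724 stood at -0.929, rank 11290 from the most alike. Gm14434 has 3 of its 6 values at 0, and the genes ranked share the same 6 libraries.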

How the data were processed

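Liver mRNA libraries, 3 labelled Cgref1 KO and 3 labelled wild type, were analysed from a deposited gene table on GRCm38 chromosome accessions. The authors' table gives RSEM expected counts, TPM and FPKM per library. HISAT, Bowtie2, RSEM and DESeq2 are named in the submitters' processing notes, without versions. RSEM divides reads that match several transcripts, so values of near-identical genes depend on how it divided them. Depth was 17627734 to 18366443 expected counts per library, which limits low genes by counting error.

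Expected counts were rounded, filtered with filterByExpr (minimum 10 counts, 12033 genes kept), scaled by TMM and tested with edgeR 4.0.16 (robust quasi-likelihood, R 4.3.3), and a call needed a Benjamini-Hochberg p under 0.05. Replicates had a biological coefficient of variation of 15.8%. Totals behind CPM were TMM-scaled. DESeq2 1.42.0, limma 3.58.1, log2(TPM + 1), log2(TPM + 0.1), log2(FPKM + 1), other scalings, no filter, a replicate block and left-out libraries were alternatives. The fit was tested on simulated counts drawn for each gene on its own, so that check does not cover divided reads. P-values measure the spread between these libraries; the labels call the replicates biological, without saying that each is 1 animal.

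Coding sequences and transcripts came from GENCODE M21 and start windows from RefSeq. Because no protein table was used here, genes were paired by coding sequence (Biopython 1.88), where protein identity had been planned. Cluster members, gene lists and pairings were chosen with earlier results of these data known. Genes were named by a fixed rule: all cluster members, the neighbours with the 3 smallest p-values and the 3 highest CPM, the 3 most and least alike genes, and the 3 co-repressor genes with the highest CPM. Of these last, 1 is not reported here. Trim28, Hdac2, Gm14288, Zfp965, Zfp972, Zfp831 and 2210418O10Rik were added outside it. The 6 group mean, 9 single-library comparison and 3 author comparison columns of the table were not used.

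Replicate numbers did not meet the condition for pairing. Correlations of same-numbered libraries' deviations were 0.361, 0.081 and 0.427, and the second lay under 0.1. Every pair of libraries differed beyond counting noise.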

Additional observations from a re-analysis of the deposited data

How the results depend on the processing

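Without wild-type-labelled replicates 1 and 3, the libraries with the most intestinal marker counts, 1 control library remained. Only effect sizes are given from that fit. The fitted log2 fold change of Gm14434 ran from 1.12 with limma on log2(FPKM + 1) to 9.74 in edgeR without KO-labelled replicate 2. With 0 counts of Gm14434 in every wild-type-labelled library, this size depended on the fit, and no fold is read from it. Calls of Gm14434 under other settings are not read as stability, since it was chosen from this contrast. Where edgeR's main settings called 1 gene, the DESeq2 Wald test called 33, limma on log2(TPM + 0.1) called 2 and edgeR with a replicate block called 34. Pairing by number is not given in the labels, and each library correlated best with its own number. With cluster members and their partners of one coding sequence counted as one, edgeR called 0, an outcome set beforehand because Gm14434 had no row of its own. Leaving out 1 library at a time gave 1 to 5 called genes, with 5 reached without KO-labelled replicate 1, and 2 to 4 cluster genes without overlap, with 4 reached without wild-type-labelled replicate 2 or KO-labelled replicate 2. Over all genes tested, 17.5% to 24.2% had no overlap with 1 library left out, against 10.8% with all 6. The log2 ratio of the summed 10 genes ran from -0.39 to 0.04, and it turned positive without wild-type-labelled replicate 3. The summed Gm14434, Gm4724 and Gm14308 ran from -0.13 to 0.11 when 1 library was left out, and stood at 0.28 with wild-type-labelled replicate 2 as the lone control, assumed to vary like the others. Gm4724 ran from -0.88 to -0.50, the latter from limma on log2(FPKM + 1). Gm14308 ran from -2.52 to 0.37 and Zfp973 from -0.77 to 0.82, the highest value from limma-voom. These ranges mix unlike scales, and they are not read as stability, since these genes too were chosen with this contrast in view. The cause of these shifts was not tested. Library totals moved the median of all genes to -0.08, and log2(TPM + 0.1) moved it to -0.13, with 3179 genes positive and 10042 negative. Depth limits Zfp973, Zfp965 and Cgref1, whose libraries held few counts each.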
